A study of Zea mays with 6 samples.

Results

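In a maize leaf experiment of 6 libraries, 100 genes stood out by how few reads they had in 1 wild type library, replicate 3. They were chosen by measured values. CPM, a gene's count scaled to a library sum of 1000000, was computed for all 39628 gene models. The 9996 models with a count of at least 50 in each of the 5 other libraries were ranked by the lowest CPM of those 5 over the CPM in wild type replicate 3 plus 1. The first 100 were taken, after the rule had set aside 4 gene models: the antenna genes cab-m1 and lhcb3 and the aquaporin genes PIP1-1 and PIP2-2. The depth of the low value is therefore how the genes were found, and it is described below without a test. The plants were field-grown Zea mays sampled as leaves at the stage of 6 leaves: 3 libraries of the inbred Q319 as wild type (CK) and 3 of the transgenic line L100. The labels name neither the transgene nor its promoter, describe L100 as 1 line, and do not say whether libraries were made from separate plants, so the spread behind each p-value is that between these samples and may be technical.

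The members with a gene name come from several leaf processes. Aquaporins of the PIP class let water cross the plasma membrane, and those of the NIP2 class are known, in rice, as carriers of silicic acid. GBSSIIa and ss1 encode starch synthases, which lengthen the glucan chains of amylose and amylopectin in plastids. Myo-inositol-phosphate synthase and galactinol synthase, encoded by mips2 and gols2, make inositol and then galactinol, the galactose donor of the raffinose sugars. Chlorophyll a/b-binding proteins form the antenna that gathers light, and glk1 encodes a GOLDEN2-LIKE transcription factor, a class that drives genes of chloroplast development. HSP70 and small heat shock proteins are chaperones that bind unfolded proteins.

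Total counts lay between 6458248 and 9922468, with the highest in wild type replicate 3, so its low values did not go with a shallow library. A floor of 3 counts was worth 0.302 CPM there and up to 0.465 CPM elsewhere. Of the 9996 genes, 220 (2.2%) were more than 4-fold below the lowest other library in wild type replicate 3. By the same measure, the other libraries had 0 to 25 such genes each, with 25 in wild type replicate 2. The median gene stood slightly higher in wild type replicate 3 than the median of the other libraries on library sums, by 0.26 on the log2 scale, and slightly lower with TMM scaling, by -0.08. All 100 members were lowest in wild type replicate 3 under both scalings, but the choice of members fixed this. They were chosen at 6.47-fold or more below the next lowest library. The TMM factors, 0.862 to 1.21 with the highest in that library, could not reverse it.

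Leaf markers were read in every library. Mesophyll genes summed to 73210 CPM in wild type replicate 3 and to between 51580 and 87130 CPM in the others, and bundle sheath genes to 15430 CPM against 18580 to 21020 CPM. Of 3 shoot meristem genes none had a count in wild type replicate 3. The root hair gene rth3 (GRMZM2G377215) had 8.16 CPM there and 0.601 to 0.977 CPM elsewhere, while rtcs, the other root marker, was at 0 in all libraries. Dividing-cell genes (33 named) summed to 655 CPM against 299 to 652 CPM, seed and reproductive genes (17 named) to 601 CPM against 326 to 472 CPM, and wounding and senescence genes (33 named) to 4794 CPM against 2127 to 5267 CPM. Most of the last sum was lox10 (GRMZM2G015419), a lipoxygenase gene, at 3093 CPM in wild type replicate 3. The senescence gene see1 (GRMZM2G038636) had 894 CPM there and 136 to 257 CPM elsewhere. The list did not follow it: of 10 genes at the count minimum, wild type replicate 3 was the highest library in 2 and the lowest in 2. The other high gene was see2b (GRMZM2G093032), at 252 CPM against 34.6 to 221 CPM. By contrast see2a (GRMZM2G081626) had 21.7 CPM, inside its range of 15.95 to 45.8 CPM. Within the dividing-cell list the largest value there was that of his1a (GRMZM2G401308), a histone gene, at 194 CPM. The gene pcna1 (GRMZM2G030523) had 2.82 CPM. Of 8 genes of that list at the count minimum, wild type replicate 3 was the highest library in 4 and the lowest in 1, tub4 (GRMZM2G066191). In the seed and reproductive list 9 genes, all zein genes among them, were at 0 in all libraries. Most of that list's sum in wild type replicate 3 came from genes with Emb names: Emb12 at 270 CPM, Emb14 at 132 CPM and Emb15 at 123 CPM. These names do not make them seed markers. The part of these marker levels in the result was not tested. In bulk leaf, fewer cells of a type and less RNA per cell cannot be told apart.

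The 100 genes together held 0.331% of the reads of wild type replicate 3 and between 3.77% and 4.26% of those of each other library. The 5 other libraries lay close together in this sum, and wild type replicate 3 stood alone. The median member had 3.48 CPM in wild type replicate 3, against 57.2 and 96.7 CPM in wild type replicates 1 and 2 and 91.3, 114 and 119 CPM in L100 replicates 1 to 3. Relative to the median of the 5 other libraries, the median member lay at -3.96 on the log2 scale of CPM plus 1. The lowest other library was above wild type replicate 3 by 6.47-fold to 503-fold, with a median of 13.4-fold. In 68 members this ratio was at least 10 and in 9 at least 50. These ratios chose the members and carry no test.

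**Figure D1:**
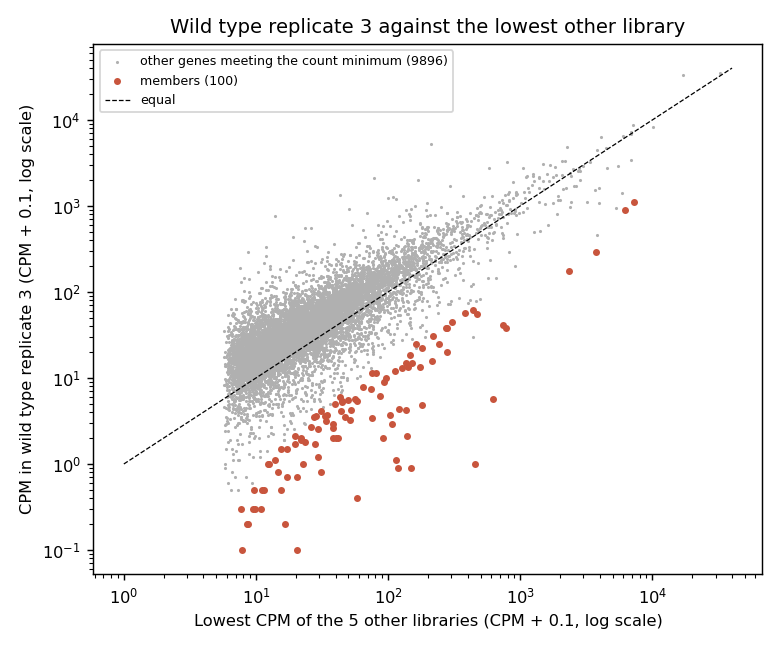
Each point is a gene with at least 50 counts in each of the 5 libraries other than wild type replicate 3, plotted by its lowest CPM among those 5 (x) and its CPM in wild type replicate 3 (y), both plus 0.1 on log scales. The 100 members (red) lie below the dashed line of equality along the lower edge of the cloud, from 0 counts to 1121 CPM.

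**Figure D2:**
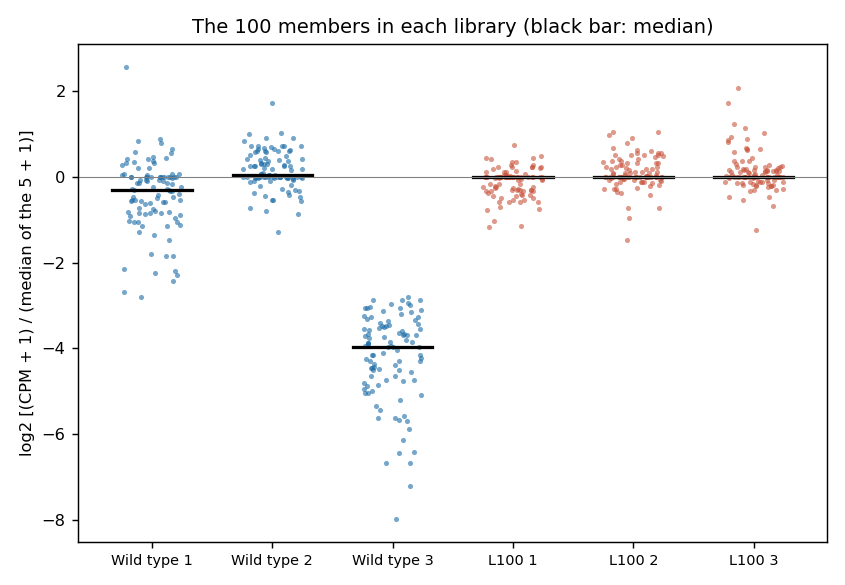
Each point is 1 of the 100 members in 1 library, as the log2 ratio of its CPM plus 1 to the median of the 5 libraries other than wild type replicate 3; black bars are medians. Wild type replicate 3 has its median at -3.96, and wild type replicate 1 has the lowest points among the other libraries.

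Among the water channels, NIP2-2 (GRMZM2G137108) had rank 3 of the 100. It had 184, 149 and 0.806 CPM in wild type replicates 1 to 3 and 150, 201 and 276 CPM in L100 replicates 1 to 3. Its 8 counts in wild type replicate 3 stood 185-fold below its next lowest library, and the highest of the 6 was L100 replicate 3. PIP1-5 (GRMZM2G081843) had 22.1, 66.5 and 1.92 CPM in wild type replicates 1 to 3, against 21.9, 49.3 and 61.3 CPM in L100. Here wild type replicate 1 and L100 replicate 1 shared the next lowest level.

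Of 29 genes with an aquaporin name, 15 met the count minimum, and 13 of these are not members. Genes were matched by name alone, and GRMZM2G374971 (sip1, also Zlp), among the 13, may not encode an aquaporin. In 7 of the 13 wild type replicate 3 was the lowest of the 6 libraries, against 17.5% of the 9896 genes outside the 100, and in 5 it was more than 2-fold below the next lowest, against 4.34%. The 13, the 7 and the 5 all include the pair set aside by the rule, so these shares are not independent of it. The rule values of this pair were 14.4 (PIP1-1) and 7.07 (PIP2-2), above the last member's 6.18. PIP1-1 (GRMZM2G174807) had 29.5 CPM in wild type replicate 3 and 439 to 477 CPM elsewhere, and PIP2-2 (GRMZM2G092125) 22.1 CPM against 163 to 363 CPM. The direction was not shared by the whole family. PIP1-3 (GRMZM2G392975) had 15.4 CPM in wild type replicate 3 and 70.4 to 348 CPM elsewhere, and Lsi1 (GRMZM2G028325), another NIP2 gene, 69.3 CPM against 204 to 266 CPM. By contrast Lsi6 (GRMZM2G081239) had 57.7 CPM, inside its range of 24.6 to 104 CPM, and TIP4-1 (GRMZM2G103945), of the vacuolar class, had its highest value there, 49.8 CPM.

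The starch synthase gene GBSSIIa (GRMZM2G008263) had 735, 1870 and 41.0 CPM in wild type replicates 1 to 3, against 1028, 1946 and 1377 CPM in L100. The lowest of the other libraries, wild type replicate 1, was still 17.9-fold above wild type replicate 3. For ss1 (GRMZM2G129451), starch synthase I, the values were 385, 483 and 56.7 CPM in wild type replicates 1 to 3, against 406, 621 and 494 CPM in L100, a ratio of 6.78 to the next lowest library. Of 9 other genes in the starch list that met the count minimum, wild type replicate 3 was the lowest library in 1 and more than 2-fold below the next lowest in 0. The 9 were matched by name patterns and include GRMZM2G037104, listed as Agpat4, which is not a starch gene name. GLG1 (GRMZM2G163437, also agpsl1), a gene of the ADP-glucose pyrophosphorylase that makes the substrate of starch synthases, had 647 CPM there and 555 to 744 CPM elsewhere.

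The inositol synthesis gene mips2 (GRMZM2G004528) had 474, 1404 and 54.8 CPM in wild type replicates 1 to 3, against 727, 986 and 1275 CPM in L100. Wild type replicate 1 was second lowest, 8.64-fold above replicate 3. The galactinol synthase gene gols2 (GRMZM5G872256, also listed as gols3) had 165, 256 and 14.8 CPM in wild type replicates 1 to 3, against 137, 260 and 206 CPM in L100. Its next lowest library was L100 replicate 1, at 9.23-fold.

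Of the antenna genes, lhcb7 (GRMZM2G402936, also Cab-m7) was a member, and it was the most abundant of the 13 members with a name. It had 7054, 6940 and 898 CPM in wild type replicates 1 to 3, against 7652, 7693 and 6216 CPM in L100. The 5 other libraries lay close together, and wild type replicate 3 kept 8914 counts, so its low value did not rest on few reads. Antenna genes are a family of similar sequences and their counts may include reads of close copies. Among 11 other named light harvesting and photosystem genes that met the count minimum, wild type replicate 3 was the lowest library in 5, more than 2-fold below the next lowest in 3 and the highest in 1. The antenna genes set aside by the rule were cab-m1 (GRMZM2G351977), at 461 CPM there against 3821 to 6407 CPM elsewhere, and lhcb3 (GRMZM2G155216), at 945 CPM against 5294 to 10050 CPM. The minor antenna genes lhcb5 (GRMZM2G149428) and lhcb6 (GRMZM2G092427) were at 965 and 1186 CPM there, against 2370 to 3656 and 1916 to 3602 CPM elsewhere. In contrast lhcb4 (GRMZM2G103101) had its highest value there, 820 CPM against 503 to 772 CPM.

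The transcription factor gene glk1 (GRMZM2G026833) was nearly level in the other libraries. It had 149, 178 and 18.4 CPM in wild type replicates 1 to 3, against 149, 170 and 146 CPM in L100, and wild type replicate 3 was 7.93-fold below the lowest of these. No gene of the carbon fixation list was a member. This list was drawn by name patterns. It also holds genes with names not of carbon fixation, such as sbp7 and CA2P12 (GRMZM2G104396). Of its genes 27 met the count minimum. Among these, wild type replicate 3 was lowest in 10 (37.0%), more than 2-fold below the next lowest in 2 (7.41%, CA2P12 among them) and highest in 5 (18.5%). Over the 9896 genes outside the 100 these shares were 17.5%, 4.34% and 41.4%. The list's median log2 ratio to the other libraries was -0.14, against 0.26 over those genes. With members left out, it was -1.12 for aquaporins, -1.30 for light harvesting and -0.69 for heat shock genes. The aquaporin and light harvesting lists still held 2 genes each that the rule had set aside. Their medians are thus not independent of the rule.

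Heat shock genes gave 3 members. The small heat shock gene hsp22 (GRMZM2G007729) had 25.8, 81.1 and 2.62 CPM in wild type replicates 1 to 3, against 119, 245 and 499 CPM in L100. A gene listed as Hsp70 (GRMZM2G310431) had 33.9, 95.1 and 3.02 CPM in wild type replicates 1 to 3, against 124, 191 and 276 CPM in L100. The last of them, hsp70-5 (GRMZM5G802801), had 31.1, 114 and 4.03 CPM in wild type replicates 1 to 3, against 69.5, 163 and 211 CPM in L100. In all 3 wild type replicate 1 was the next lowest library and L100 replicate 3 the highest. HSP70 genes are similar in sequence, so reads may be shared among them. Of 9 heat shock genes outside the 100 that met the count minimum, wild type replicate 3 was the lowest library in 5. The share over the 9896 genes outside the 100 was 17.5%. In 2 of the 9, against 4.34%, it was more than 2-fold below the next lowest. HSP90-1 (GRMZM2G024668), one of these, had 79.2 CPM there against 466 to 2380 CPM elsewhere.

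The remaining pair of named members were Actin-7 and MFSP. Actin-7 (GRMZM2G006765), a gene of the cytoskeleton, had 10.8, 15.5 and 0.202 CPM in wild type replicates 1 to 3, against 22.0, 12.8 and 11.9 CPM in L100. Its value in wild type replicate 3 was 2 counts, and the ratio of the next lowest library to it was 53.7. The 95% exact counting interval was 14.5 to 450. It describes counting error in a ratio that chose the gene and is no test of it. The related actin gene ACT-1 (GRMZM2G126010) had 30.5 CPM there and 19.97 to 29.0 CPM elsewhere. MFSP (GRMZM2G066801) had 56.5, 61.2 and 5.54 CPM in wild type replicates 1 to 3, against 70.5, 75.1 and 90.7 CPM in L100.

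In the test of L100 against wild type replicates 1 and 2 described further on, edgeR called 0 of 24 aquaporin genes and 0 of 13 starch genes. It called 1 of 12 light harvesting genes, cab48 (GRMZM2G120619, edgeR adjusted p = 0.04999), and 1 of 22 heat shock genes, hsp101 (GRMZM2G360681, 0.0446). Both were higher in L100 and close to the threshold of 0.05. Over all 19026 genes tested the share called was 0.794%. The other lists held no member, and their median log2 ratios of wild type replicate 3 to the other libraries ran from -2.17 (wax and cuticle, 2 genes at the count minimum) to 2.70 (expansins, 1 gene).

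**Figure D3:**
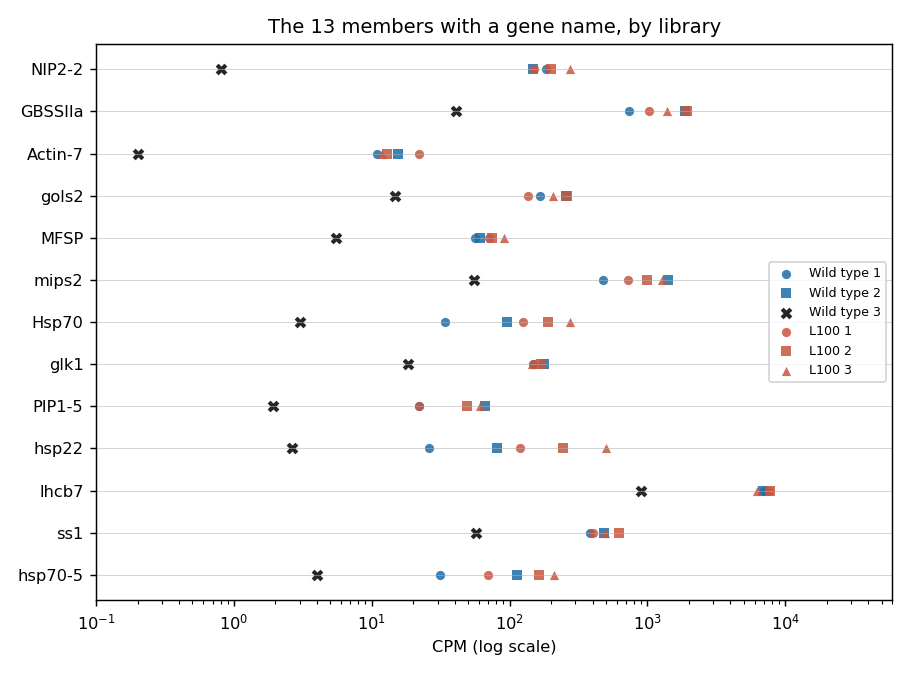
CPM on a log scale of the 13 members with a gene name in each of the 6 libraries (blue, wild type replicates 1 and 2; black cross, wild type replicate 3; red, L100). The cross lies left of all other points in every row, and the 3 heat shock genes have their widest spread among the others, from 25.8 to 499 CPM for hsp22.

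A few named clock genes were high in the library in which the members were low. GI (GRMZM2G107101, GIGANTEA), known in Arabidopsis as an evening clock gene, had 420, 448 and 1293 CPM in wild type replicates 1 to 3, against 456, 402 and 367 CPM in L100. Its copy gigz1b (GRMZM5G844173) had 411 CPM in wild type replicate 3 and 90.0 to 122 CPM elsewhere. PRR59 (GRMZM2G135446), a pseudo-response regulator, had 80.8 CPM there and 7.68 to 11.3 CPM elsewhere. These 3 genes were named after their values were seen. Of 11 genes in the clock and light list that met the count minimum, wild type replicate 3 was the highest library in 6 (54.5%) and the lowest in none, against 41.4% and 17.5% of the 9896 genes outside the 100. Of the 11, 4 carry names of elongation factors and not of clock genes. The labels used here give no time of sampling, and the part of the clock genes' levels in the members' values was not tested.

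**Figure D4:**
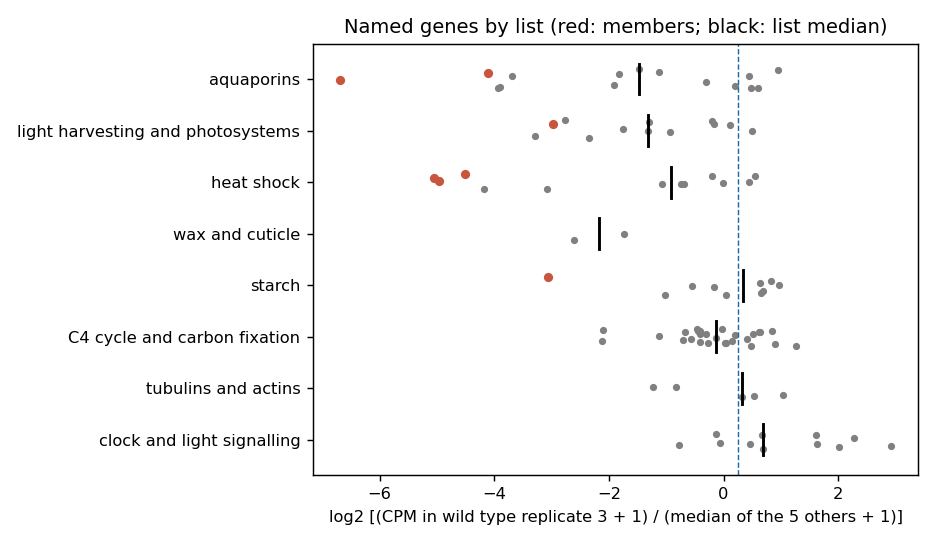
Each point is a named gene that met the count minimum, placed by the log2 ratio of wild type replicate 3 to the median of the 5 other libraries (CPM plus 1), by gene list; red points are members, black bars list medians, and the dashed line the median of all 9996 genes, 0.26. Aquaporins, light harvesting and heat shock genes reach far to the left, and clock genes lie mostly to the right.

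Most members have no gene name in the reference table, and their roles are not stated here. The first of the 100, GRMZM2G014902, had 625, 794 and 0.907 CPM in wild type replicates 1 to 3, against 482, 456 and 479 CPM in L100. Its 9 counts in wild type replicate 3 were 503-fold below the next lowest library, the largest ratio among the 100. GRMZM2G474769, at rank 2, had 705, 675 and 5.64 CPM in wild type replicates 1 to 3, against 853, 636 and 624 CPM in L100. GRMZM2G175265, at rank 4, had 120, 158 and 0.806 CPM in wild type replicates 1 to 3, against 157, 144 and 191 CPM in L100. The reference table puts these last 2 models in 1 gene record, so they may be parts of 1 gene and are not independent members. The same holds for GRMZM2G388855 and GRMZM2G371313, at ranks 42 and 99.

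The 6 other genes of the first 10 without a name had a next lowest library 37.9-fold to 191-fold above wild type replicate 3. GRMZM2G177982 had 116, 194 and 1.01 CPM in wild type replicates 1 to 3, against 114, 172 and 191 CPM in L100. GRMZM2G093096 fell to 2.02 CPM against 140 to 207 CPM, and GRMZM2G337819 to 3 counts, 0.302 CPM, against 57.8 to 92.1 CPM. For GRMZM2G171390 and GRMZM2G007160 wild type replicate 3 had 4.74 and 2.82 CPM, and the others 180 to 299 and 107 to 167 CPM. GRMZM2G114751 was unlike these. It had 90.9 CPM in wild type replicate 1, 1.92 CPM in replicate 3 and 367 to 536 CPM in the 4 remaining libraries.

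By level per length, as the FPKM deposited by the authors (fragments scaled by gene length and library size), the most abundant member was AC207722.2_FG009. It had 7289, 7657 and 918 FPKM in wild type replicates 1 to 3, against 10030, 9730 and 7726 FPKM in L100. Next came lhcb7, at a mean of 6303 FPKM over the 5 libraries and 630.0 FPKM in wild type replicate 3, GRMZM2G057281 at 4478 and 228 FPKM, GRMZM2G003762 at 2238 and 109 FPKM, and GRMZM2G429955 at 1002 and 12.6 FPKM. Without the 4 with the highest mean CPM, the members' sum was 823 CPM in wild type replicate 3 and 14470 to 21120 CPM elsewhere. Since each member was chosen as low in that library, a low sum had to remain. The median member had 71.8 FPKM over the 5 libraries, with quartiles of 35.3 and 188 FPKM, against a median of 18.1 FPKM over all genes meeting the count minimum. The constant of 1 CPM in the rule favours abundant genes.

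In wild type replicate 3, 2 members had no count, 8 had 1 to 3 counts, 14 had 4 to 9 and 37 had 10 to 49. The other 39 had 50 or more. GRMZM2G302245 had 0 counts there and 20.3 to 68.3 CPM elsewhere, which is at least 67.1-fold higher when 3 counts in that library are taken as the floor. GRMZM2G066636 was likewise at 0 counts, with 7.70 to 15.9 CPM elsewhere, at least 25.4-fold higher. For the 8 with 1 to 3 counts the ratio of the next lowest library ran from 37.4, with an exact counting interval of 9.86 to 317, for GRMZM2G105192 to 191, with an interval of 65.1 to 931, for GRMZM2G337819. These intervals cover counting error only. The ratios they surround chose the members, so the intervals are no test of the low values.

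The end of the list was not marked by a gap. The last 3 members, GRMZM2G083058, GRMZM2G371313 and hsp70-5, had rule values of 6.21, 6.19 and 6.18. The first 3 genes outside, MYBE1 (GRMZM2G145041), GRMZM2G097135 and GRMZM2G066291, had 6.16, 6.15 and 6.13.

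Among the 5 other libraries, wild type replicate 1 was the low one for these genes. It was the lowest of the 5 in 50 of the 100 members, against 20.8% of all genes meeting the count minimum, and below wild type replicate 2 in 73, against 41.98%. In 13 members it was more than 2-fold below the lowest of the 4 others, against 1.42% of all genes. By this choice all 13 have wild type replicate 3 lowest, replicate 1 next and the rest above. They include the 3 heat shock genes, GRMZM2G114751 and AC189750.4_FG004, which had 127, 680 and 12.9 CPM in wild type replicates 1 to 3, against 465, 692 and 757 CPM in L100. GRMZM2G079559 had 19.5, 186 and 2.02 CPM in wild type replicates 1 to 3, against 62.4, 142 and 154 CPM in L100. Since the rule takes the lowest of the 5 libraries, these counts are descriptions.

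L100 was compared with wild type replicates 1 and 2, leaving out the library that chose the members. In edgeR's quasi-likelihood test 1 of the 100 members passed an adjusted p of 0.05, and it was lower in L100. Over all 19026 genes tested, 151 (0.794%) passed, 82 higher and 69 lower, and among those meeting the count minimum 19 of 9996 (0.190%). At an unadjusted p under 0.05 there were 13 members, 9 higher and 4 lower, against 10.1% of all genes tested and 7.35% of those meeting the count minimum.

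The called member was GRMZM2G429955, which has no name in the reference table. It had 2349 and 1306 CPM in wild type replicates 1 and 2, 13.2 CPM in replicate 3, and 394, 141 and 245 CPM in L100. The libraries of L100 thus lay between wild type replicate 3 and the other pair, and all 3 were below that pair. The log2 fold change without replicate 3 was -2.67 (edgeR adjusted p = 0.0430). The call was lost without each L100 library in turn (edgeR adjusted p 0.0771, 0.184 and 0.289 without replicates 1, 2 and 3), with limma-voom (0.0526) and with a filter of at least 5 CPM on the mean (0.0799). It was kept by DESeq2 and by edgeR without wild type replicate 1 (adjusted p = 0.0152) or replicate 2 (0.00294). The log2 fold change lay between -3.08 and -2.30 over these settings.

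Most of the members lay higher in L100 than in wild type replicates 1 and 2, but this turned on 1 library. With all 5, 73 of 100 had a positive log2 fold change, against 49.8% of all genes tested and 54.8% of those meeting the count minimum, and the median was 0.18, against 0.00 over all genes tested. Without wild type replicate 1 the count was 49 and the median -0.01. Without wild type replicate 2 the count was 84 and the median 0.65, with 18 members called by edgeR, against 5.16% of the genes tested there. On TMM-scaled CPM the libraries of both lines did not overlap in 17 members higher in L100 (all genes 12.4%) and in 9 lower (all genes 14.0%). On plain library sums these were 16 and 10 members, against 8.47% and 19.0% of all genes.

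In 9 members the mean was at least 2-fold higher in L100, against 1.51% of the genes meeting the count minimum. These 9 include the 3 heat shock genes. The log2 fold change was 2.50 ± 0.75 (SE) for hsp22, with an edgeR adjusted p of 0.274. It was 1.69 ± 0.56 for Hsp70 and 1.10 ± 0.67 for hsp70-5, with edgeR adjusted p of 0.329 and 0.666. DESeq2 called hsp22 (adjusted p = 0.00706), as did edgeR with no filter on low counts (0.0435) and with a block for replicate number (0.0426). In hsp22 and Hsp70 the libraries of the lines did not overlap, while in hsp70-5 L100 replicate 1 lay below wild type replicate 2. These values moved with the wild type library used: the log2 fold changes of hsp22, Hsp70 and hsp70-5 were 1.86, 1.09 and 0.42 without wild type replicate 1, and 3.73, 2.80 and 2.52 without replicate 2. edgeR called all 3 in the latter case (adjusted p 0.0176, 0.00979 and 0.0346) and none in the former.

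The unnamed members of this group were led by GRMZM5G863645, with 27.6 and 74.4 CPM in wild type replicates 1 and 2 and 183, 228 and 218 CPM in L100. GRMZM2G327686 had 52.3 and 74.8 CPM in that pair, against 181, 193 and 136 CPM in L100, and GRMZM2G049349 58.4 and 72.6 CPM against 121, 138 and 247 CPM. In wild type replicate 3 these 3 genes had 1.61, 4.13 and 5.24 CPM. Their L100 libraries were all above their wild type libraries. With the 5 libraries and the filter on low counts, edgeR's adjusted p was 0.130, 0.116 and 0.173. With no filter edgeR called GRMZM5G863645 (adjusted p = 0.0192) and GRMZM2G327686 (0.0334). Without wild type replicate 1 it called GRMZM5G863645 (0.0429), and without replicate 2 all 3. DESeq2 called all 3, among 6 members in all, against 3.03% of all genes tested. It also called GRMZM2G167428, which was lower in L100 (log2 fold change -0.83, DESeq2 adjusted p = 0.0377).

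The other 10 named members did not pass the test between L100 and wild type replicates 1 and 2. Their log2 fold changes ran from 0.06 for gols2 and glk1 to 0.55 for MFSP (edgeR adjusted p 0.543 to 0.983). For glk1 it was 0.06 ± 0.27 (SE), for lhcb7 0.18 ± 0.27, for NIP2-2 0.47 ± 0.31 and for GBSSIIa 0.26 ± 0.51. A p above the threshold does not show that these levels were equal.

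**Figure D5:**
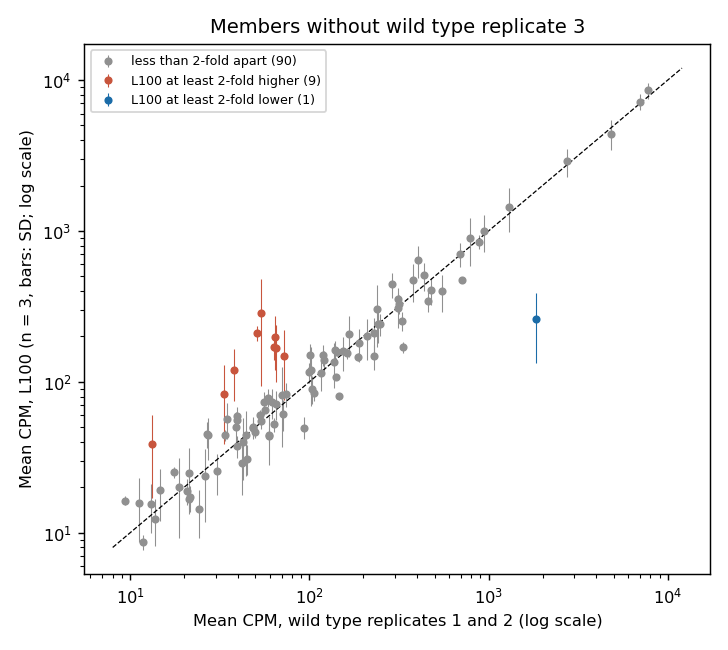
Mean CPM of each member in L100 (y, n = 3, bars are SD) against its mean in wild type replicates 1 and 2 (x), on log scales; the dashed line marks equal means. Of the 100 members 9 lie at least 2-fold above the line, and GRMZM2G429955 lies far below it, with means of 1828 CPM (wild type) and 260 CPM (L100).

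With all 6 libraries, edgeR called none of the members between L100 and wild type, against 156 of 18702 genes (0.834%), and DESeq2 called hsp22, against 3.05% of all genes. At an unadjusted p under 0.05 there were 4 members by edgeR. This comparison contains the library that chose the members, so nothing is read from that count.

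The median coding length was 1280 bases, with quartiles of 814 and 1684, against 1316 bases (867 and 1893) over the genes meeting the count minimum. A single record in the reference name table was found for 64 of the 100, against 7497 of the 9996. Gene models with an AC identifier were 7 of the 100, against 2.28%, and 13 members had an informative name, against 11.8% of the 9996. Of those 64, no pair from different records lay next to each other in the order of the placed genes. Across the 5 other libraries the median coefficient of variation was 28.4% for the members and 22.6% for all genes meeting the count minimum.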

How the data were processed

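Per the labels, RNA of field-grown leaves was extracted with Trizol and sequenced as Illumina libraries. The submitters' processing notes name Bowtie 0.12.2 and the build B73 RefGen_v3, and no source used here names a counting tool. Per the file headers, the authors' tables hold an estimated count, an FPKM value, a scaled signal and a length for each gene. Of the deposited estimated counts, 0.300% were not whole at a tolerance of 0.001; the tests used rounded values. The deposited FPKM served for levels between genes, and the scaled signal deposited by the authors was not tested. Because 88.7% of the lengths divide by 3, they are called coding lengths.

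L100 and wild type were compared with edgeR 4.0.16 in R 4.3.3 (quasi-likelihood test, TMM scaling, filterByExpr, Benjamini-Hochberg over all genes tested, threshold 0.05), without and with wild type replicate 3. DESeq2 1.42.0 and limma-voom (limma 3.58.1) were alternatives. Standard errors are the absolute log2 fold change over the square root of F. The fit was tested on simulated data. Within each group every pair of libraries differed beyond sampling noise (chi-square of at least 14.4 per gene).

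Names came from a RefSeq table of a later build, which held records for 18774 of 39628 models; names of clones and markers were dropped. Members and gene lists were chosen with earlier results of these data known. Genes were put in lists by patterns in their names, so a list can hold genes of other kinds. Values are given for members with a name, the first 10, the last 3 and the 3 just outside, the 5 highest by FPKM, and called members; members of the pattern groups were picked after their values were seen. Promoter motifs and protein similarity were not analysed here.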

Additional observations from a re-analysis of the deposited data

How the results depend on the processing

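In L100 against wild type replicates 1 and 2, edgeR's 151 calls became 576 with DESeq2, 87 with limma-voom, 521 with no filter and 65 with a mean of at least 5 CPM, and ranged from 0 to 1047 when 1 library was left out (0 without L100 replicate 2 or 3, where the unadjusted p was under 0.05 in 1325 and 1218 genes; 21 without L100 replicate 1; 552 and 1047 without wild type replicates 1 and 2, where 1 wild type library is assumed to vary like L100). The 1 member called became 6 with DESeq2, 0 with limma-voom, 4 with no filter and 0 with a mean of at least 5 CPM, and 0 to 18 when 1 library was left out. The members' median log2 fold change ranged from -0.01157 without wild type replicate 1, a change of sign, to 0.647 without wild type replicate 2.

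With all 6 libraries, the 156 calls became 570 with DESeq2 and 47 with a mean of at least 5 CPM, and ranged from 0 to 222 when 1 library was left out; called members became 1 with DESeq2 and 0 to 1 with 1 library left out. Where no cause is given, the cause was not tested. Same-numbered libraries did not deviate together in every pair (correlations of 0.384, 0.348 and 0.0146), so the replicate number as a block is given here: 2 members, hsp22 and GRMZM2G429955, were called without wild type replicate 3 (1 without the block), and 5 genes in place of 156 with all 6 libraries.

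The choice of members held for 100 and 88 of the 100 at count minima of 20 and 100, for 87 and 72 with 0.1 and 5 CPM added, for 72 with the median of the 5 libraries, for 94 with TMM scaling and for 88 with FPKM.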
